A study of Mus musculus with 72 samples.

Results

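The 10 genes described here carry the signals by which the hypothalamus reads energy stores and meals: the leptin receptor Lepr with Stat3 and Socs3, the insulin and insulin-like growth factor receptors Insr and Igf1r with the adaptors Irs1 and Irs2, the gut hormone receptors Ghsr and Glp1r, and the cannabinoid receptor Cnr1. They were chosen by name, with earlier results of these data known, and all 10 are among the 21749 genes listed in each of the 10 count tables. The counts come from total RNA of the hypothalamus of adult B6 mice in which 1 of 5 conserved noncoding elements, E1 to E5, had been knocked out (KO) or was intact (WT). Mice of each line either had no food for 72 h, with water at hand (fasted), or were fed. The names of the deposited count tables join each element to Fto. The sample labels give neither the position of the elements nor the genes they may act on. They also do not say whether the libraries of a group come from separate mice. P-values therefore measure the spread between these libraries, part of which may be technical.

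Groups held 4 libraries, except 3 in fasted E2 KO and WT, in fasted E4 KO, in fasted E1 WT and in the 4 E3 groups. In E1 and E3 the fasted and fed libraries carry the same batch number. In E2, E4 and E5 they carry different ones, so that feeding and batch cannot be told apart there.

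Leptin from fat and insulin from the pancreas both tell hypothalamic neurons that energy is plentiful. Leptin binds Lepr, which through a Janus kinase activates the transcription factor Stat3, and Stat3 induces Socs3, which shuts the receptor off again. Insulin and IGF1 bind the related receptor kinases Insr and Igf1r, whose signal is carried inward by Irs1 and Irs2. Ghrelin from the empty stomach acts the opposite way through Ghsr, a receptor of the Agrp neurons that drive feeding, GLP-1 curbs intake through Glp1r, and endocannabinoids act on Cnr1 at axon terminals to damp transmitter release.

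The 72 libraries held 5517552 to 39999368 counts each, and none of the 96 pairs of replicates had identical counts. All 12 hypothalamic markers (among them Agrp, Npy, Pomc, Avp and Hcrt) had counts in every group, at a summed 160 to 2525 CPM, counts scaled to a common library total. Neighbouring tissue varied: thalamic markers (5 genes) summed to 62.2 to 664 CPM and anterior pituitary markers (10 genes) to 0.433 to 18896 CPM, with Lhb and Tshb at 0 in every group. In 15 libraries markers of pituitary, choroid plexus, fat, muscle or liver, or 10 dominant genes, stood out. Effects on the 10 genes described here are given without these libraries where that ends a call. Ddx3y, which lies on the Y chromosome, measured 69.8 to 136 CPM in E3 and at most 0.298 CPM in the other lines, so any difference between E3 and another line coincides with this marker and with batch. In bulk tissue, fewer cells of a type and less RNA per cell cannot be told apart. Likewise, a summed marker level cannot tell more tissue from more RNA of single markers such as Agrp or Npy.

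Lepr lies on mm10 chr4:101717404-101815352 (plus strand), Stat3 on chr11:100885098-100939540 (minus), Socs3 on chr11:117966079-117970047 (minus), Insr on chr8:3122061-3279617 (minus), Igf1r on chr7:67952827-68233668 (plus), Irs1 on chr1:82233101-82291416 (minus), Irs2 on chr8:10984681-11008458 (minus), Ghsr on chr3:27371351-27378010 (plus), Glp1r on chr17:30901817-30940791 (plus) and Cnr1 on chr4:33924593-33948831 (plus). All are protein-coding. Whether reads kept their strand is not given in the sources used here, so reads of Stat3 cannot be told from those of Stat5a where the genes overlap on opposite strands, and the same holds for Insr, Irs1, Irs2 and Glp1r, each of which overlaps a noncoding or predicted gene.

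Promoter sequence was available from RefSeq (GRCm38.p6) for 9 of the 10 genes, in 12 windows, and 4 are printed 5′ to 3′. Socs3 is shown because it holds the only motif match found, and Igf1r, Ghsr and Cnr1 because these 3 genes were called together in the fasting comparison of wild types. Capitals mark the match of the STAT motif TTCNNNGAA in Socs3, the other sequences hold no match and are in lower case.
Socs3 chr11:117969452-117969616, minus strand: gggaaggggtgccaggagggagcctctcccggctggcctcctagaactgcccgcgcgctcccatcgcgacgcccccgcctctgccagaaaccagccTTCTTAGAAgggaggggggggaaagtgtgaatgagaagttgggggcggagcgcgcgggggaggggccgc
Igf1r chr7:67952007-67952256, plus strand: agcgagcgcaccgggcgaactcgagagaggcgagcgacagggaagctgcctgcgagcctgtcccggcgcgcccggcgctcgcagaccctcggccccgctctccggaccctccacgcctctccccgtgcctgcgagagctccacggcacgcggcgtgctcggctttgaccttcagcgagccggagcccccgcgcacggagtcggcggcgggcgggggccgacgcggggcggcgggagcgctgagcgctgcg
Ghsr chr3:27371101-27371350, plus strand: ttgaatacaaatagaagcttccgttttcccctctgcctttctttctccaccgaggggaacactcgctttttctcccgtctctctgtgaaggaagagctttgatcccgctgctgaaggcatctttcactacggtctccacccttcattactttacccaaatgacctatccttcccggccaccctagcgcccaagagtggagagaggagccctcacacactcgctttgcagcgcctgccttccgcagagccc
Cnr1 chr4:33924014-33924263, plus strand: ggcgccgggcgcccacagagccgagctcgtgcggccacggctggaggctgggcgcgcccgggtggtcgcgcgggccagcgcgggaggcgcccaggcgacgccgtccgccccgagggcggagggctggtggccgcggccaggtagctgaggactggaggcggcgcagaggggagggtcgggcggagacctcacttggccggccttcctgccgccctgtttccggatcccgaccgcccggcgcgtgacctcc
In Socs3 the match TTCTTAGAA spans bases -154 to -146 before the RefSeq start, which lies inside the GENCODE gene, and the printed stretch ends where annotated exons begin. Both strands of 32851 windows of 250 bases were searched, and TTCNNNGAA occurred in 7.02% of them, the FoxO motif GTAAACA in 3.17%, the cyclic AMP motif TGACGTCA in 1.55% and the glucocorticoid motif, AGAACA and TGTTCT with 3 bases between, in 0.00913%. Matches of different motifs were counted separately, overlapping or not. A match is a stretch of letters and not a bound site. The windows of Igf1r (77.6% GC, 42 CG dinucleotides) and Socs3 (71.6%, 26) were richer in GC than the median window (52.4%, 6), whereas the window of Ghsr was close to it (54%, 11). Cnr1 has 3 windows, of which the printed one (79.2%, 36) and another (68.8%, 28) lie above the median window and the third (49.2%, 5) lies below it.

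Per kilobase of exon, Cnr1 and Irs2 had the highest levels of the 10 genes, each with a median of 17.6 CPM per kb over the 72 libraries, and Cnr1 was above Irs2 in 34 of the 72. Igf1r followed at 12.6, Insr at 10.3, Stat3 at 7.84 and Irs1 at 6.57 CPM per kb. Each of these stood below its neighbour in 63 to 71 libraries. Lepr was lower, at 2.07 CPM per kb, and below Irs1 in all 72. Ghsr was at 1.09 and Socs3, whose protein is made briefly after leptin or cytokines arrive, at 0.717 CPM per kb.

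**Figure D1:**
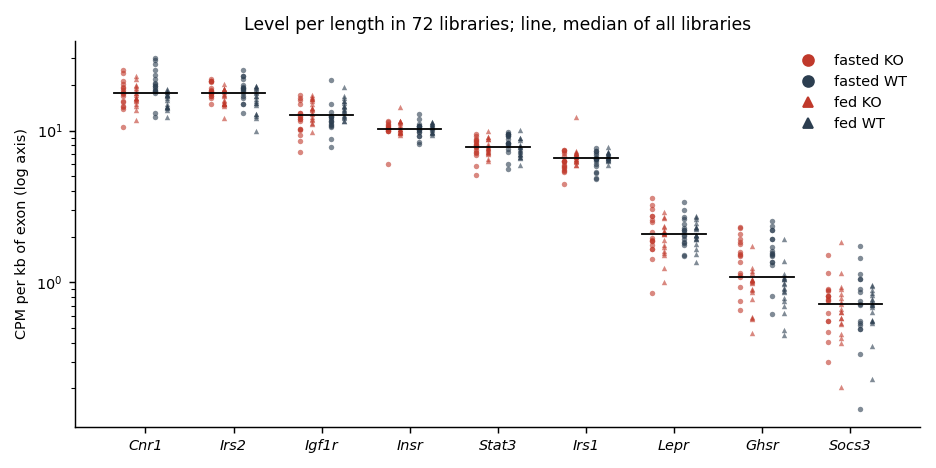
Level of 9 genes in CPM per kb of exon (log axis), 1 point per library, with knockouts in red, wild types in dark blue, circles for fasted and triangles for fed, and a line at the median of 72 libraries. The medians run from 17.6 CPM per kb in Cnr1 and Irs2 to 0.717 in Socs3; Glp1r, at 0 in most libraries, is not drawn.

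Glp1r, the GLP-1 receptor, was close to undetectable. It had 27 counts in all, spread over 15 of the 72 libraries with at most 4 in one, while 3 counts correspond to 0.075 to 0.544 CPM depending on depth. It failed the filter on low counts in every comparison, so no fold change was tested, and a difference in Glp1r was not detectable from these counts. P2ry12, a microglial marker, was likewise at 0 in every group, although the microglial markers (5 genes) summed to 70.8 to 169 CPM. Whether the low counts of Glp1r reflect its RNA or the counting of its reads was not tested. The other 9 genes passed the filter in all 24 comparisons.

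The spread among libraries of a group differed between the genes and sets what could be seen. The coefficient of variation within groups was 8.55% for Insr, 10.1% for Stat3, 10.5% for Irs2, 13% for Irs1, 14.6% for Cnr1, 16% for Igf1r and 18.6% for Lepr. It was 27.5% for Ghsr and 39.3% for Socs3.

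**Figure D2:**
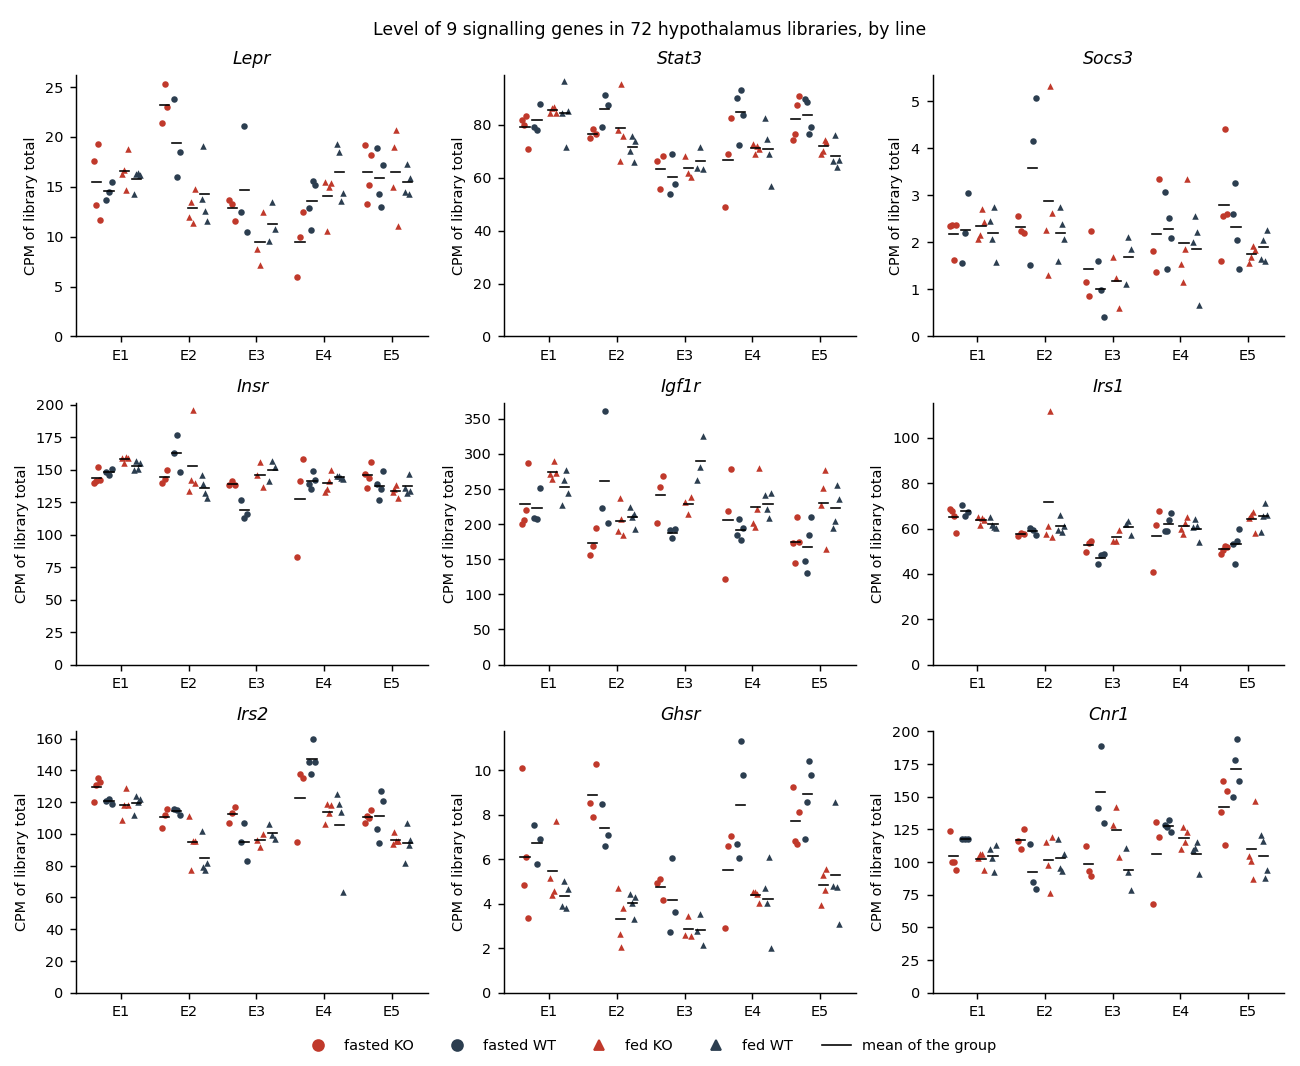
CPM of the library total for 9 genes (1 panel each), by line, 1 point per library, with knockouts in red, wild types in dark blue, circles for fasted, triangles for fed and a line at the group mean. Fasted libraries of Ghsr lie above fed ones on average in every line, from a lowest group mean of 2.82 CPM in fed E3 WT to a highest of 8.91 CPM in fasted E5 WT, whereas Socs3 scatters within groups from 0.422 to 5.32 CPM overall.

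Fasting was examined first in E1 and E3, where batch is shared, with the line as a covariate. In knockouts 1 of the 9 genes was called, Insr, which fell, against 20.1% of all 14956 genes tested (9.90% higher and 10.2% lower). In wild types 3 were called, with Ghsr and Cnr1 higher and Igf1r lower, against 11.0% of 14847 genes (5.37% higher and 5.65% lower). A gene was called at an edgeR adjusted p (Benjamini-Hochberg over all genes tested) under 0.05, and fold changes are log2 with their standard error (SE).

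**Figure D3:**
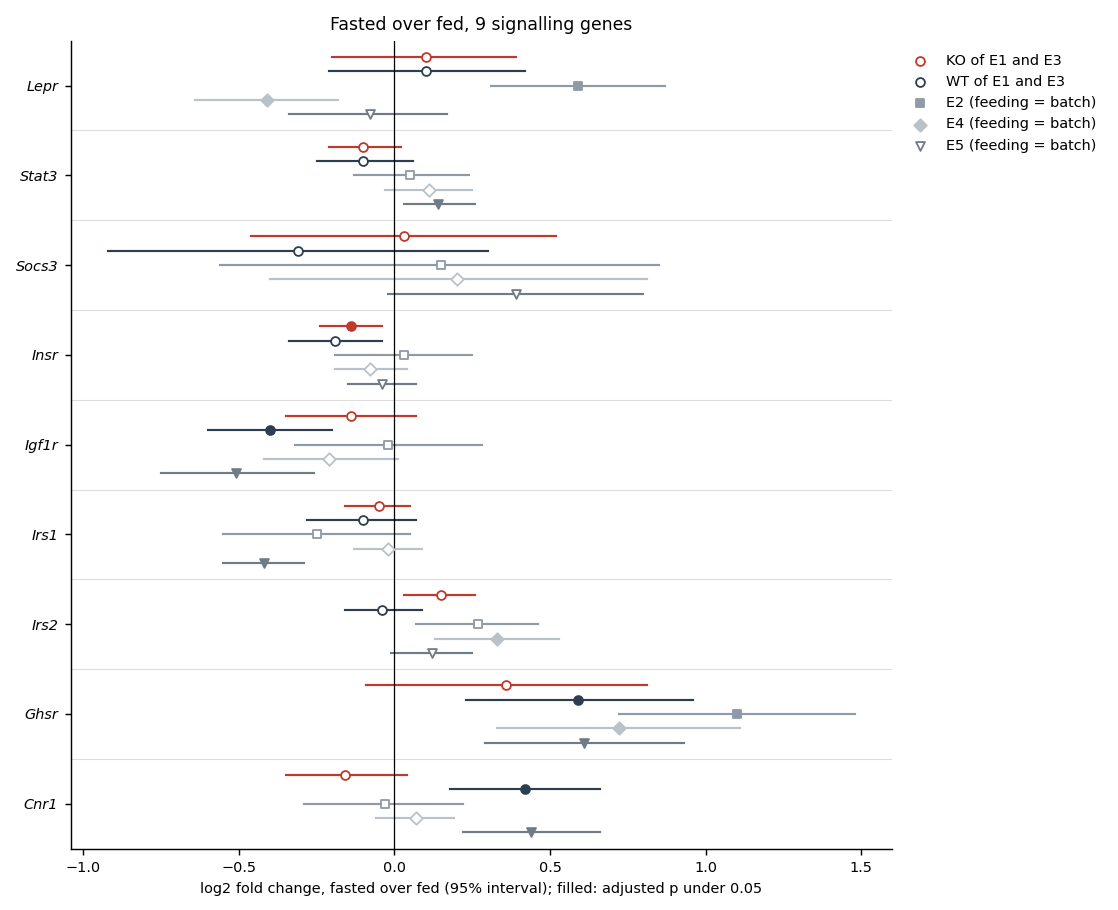
Log2 fold change of fasted over fed with its 95% interval for 9 genes in the knockouts and wild types of E1 and E3 and in E2, E4 and E5, where feeding coincides with batch; filled symbols have an adjusted p under 0.05. Ghsr lies right of 0 in all 5 fits (0.36 to 1.10), and in Cnr1 the knockouts of E1 and E3 (-0.16) and the wild types (0.42) lie on either side of 0.

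In the leptin arm, no gene passed the test in either genotype. Lepr was at log2 0.10 (SE 0.14, edgeR adjusted p 0.666) in knockouts and 0.10 (0.15, 0.681) in wild types. Stat3 was at -0.10 (0.05, 0.212) in knockouts and -0.10 (0.07, 0.403) in wild types. Socs3 was at 0.03 (0.23, 0.948) in knockouts and -0.31 (0.29, 0.503) in wild types, with 95% intervals of -0.46 to 0.52 and -0.92 to 0.30, and a change of Socs3 within these bounds was not detectable at this spread.

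The fasting effect on Lepr was then compared between the lines. In E3 Lepr measured 13.7, 13.3 and 11.6 CPM in fasted KO, against 8.79, 7.14 and 12.5 CPM in fed KO. In E3 WT it measured 12.5, 21.1 and 10.5 CPM fasted, against 9.61, 13.5 and 10.8 CPM fed. In both genotypes the fasted and fed libraries overlap, and a single fasted WT library at 21.1 CPM is the highest. In E1, Lepr was 17.6, 13.2, 19.3 and 11.7 CPM in fasted KO against 16.3, 16.7, 14.7 and 18.8 CPM in fed KO, and 13.7, 14.5 and 15.5 CPM in fasted WT against 14.3, 16.3, 16.4 and 16.2 CPM in fed WT. The E1 groups overlap in both genotypes as well. The fasting effect on Lepr was 0.54 (SE 0.19) higher in E3 than in E1 (edgeR adjusted p 0.0490), in a comparison that called 2 of the 9 genes and 17.0% of 15350 genes (8.46% higher and 8.53% lower). The call ended when any one of 19 of the 27 libraries was left out (log2 0.40 to 0.65, adjusted p up to 0.111); it held only without fasted E1 KO 1 or 3, fed E1 KO 3, fasted E3 KO 3, fed E3 KO 3, fasted E3 WT 1 or 3, or fed E3 WT 2. It ended as well under RLE normalization (0.53, adjusted p 0.0504), with no filter on low counts (0.54, 0.0558) and with the GC trend of each library taken out (0.44, 0.125).

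In the insulin and IGF arm, the estimates of both receptors over E1 and E3 together were below 0 in both genotypes. Igf1r, the IGF1 receptor, measured 200, 206, 220 and 287 CPM in fasted E1 KO, against 271, 264, 290 and 273 CPM in fed E1 KO, and 201.3, 253.2 and 269.3 CPM in fasted E3 KO, against 231, 215 and 239 CPM in fed E3 KO. The KO groups overlap in both lines, and over both lines the knockouts gave -0.14 (SE 0.10, edgeR adjusted p 0.327). Taken alone, E1 knockouts gave -0.26 (0.12, 0.107) and E3 knockouts 0.06 (0.11, 0.856).

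In wild types Igf1r measured 209, 207 and 251 CPM in fasted E1 WT, against 228, 263, 277 and 245 CPM in fed E1 WT. In E3 WT it measured 191, 180 and 193 CPM fasted, against 262.71, 282.01 and 326.08 CPM fed. The E3 groups do not overlap, and in E1 1 fasted library lies among the fed ones. Over both lines Igf1r fell by 0.40 on the log2 scale (SE 0.10, edgeR adjusted p 0.0185), and it stayed called with each of the 13 libraries left out in turn (adjusted p 0.00441 to 0.0473). Within a batch the value was -0.22 (0.10, 0.201) in E1 and -0.58 (0.12, 0.0121) in E3. The direction is the same in both lines, and without the libraries holding other tissues the call over both lines ended at the same size (-0.40, adjusted p 0.07).

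Beside Igf1r in E3 WT, endothelial markers (8 genes) summed to 54.1, 85.3 and 45.1 CPM in fasted libraries, against 132, 123 and 156 CPM in fed ones, and their part in the difference was not tested. In E1 WT the same markers were at 90.1, 98 and 133 CPM fasted, against 82.7, 130, 115 and 133 CPM fed. Over the 72 libraries, with group means taken off, Igf1r went with the summed endothelial markers at r = 0.54 and with striatal markers at 0.66. This describes libraries that also differ in depth and base composition.

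Insr, the insulin receptor, had the tightest values. In E1 it measured 140, 141, 152 and 142 CPM in fasted KO, against 159, 155, 160 and 159 CPM in fed KO. In E1 WT it measured 148, 146 and 151 CPM fasted, against 150, 157, 151 and 155 CPM fed. The E1 KO groups do not overlap, and the E1 WT groups overlap at 150 to 151 CPM. Over the 15 E1 libraries Insr fell by 0.12 on the log2 scale (SE 0.04, edgeR adjusted p 0.0170), one of 2 genes called there with Igf1r (-0.25, SE 0.08, 0.0241), against 40.0% of 15018 genes (20.5% higher and 19.4% lower). The Insr call in E1 held with each of the 15 libraries left out (adjusted p 0.00974 to 0.0412). That of Igf1r ended without fasted E1 KO 1, 2 or 3 or fasted E1 WT 1 or 2 (adjusted p up to 0.0549).

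In E3, Insr measured 138, 141 and 138 CPM in fasted KO, against 146, 156 and 137 CPM in fed KO. In E3 WT it measured 127, 113 and 116 CPM fasted, against 141, 157 and 152 CPM fed. The E3 KO groups overlap, and the E3 WT groups do not. Over both lines the knockouts gave -0.14 (SE 0.05, edgeR adjusted p 0.0494) and the wild types -0.19 (0.07, 0.0914). The KO call ended when any one of 12 of the 14 libraries was left out, all but fasted E3 KO 2 and fed E3 KO 3 (adjusted p 0.0219 to 0.15). It ended too under RLE normalization (-0.13, adjusted p 0.0645), with no filter (-0.14, 0.0696) and with the GC trend taken out (-0.11, 0.0743). Within a batch the knockouts gave -0.14 (SE 0.06, adjusted p 0.0697) in E1, where 5169 genes were called, and -0.09 (0.09, 0.719) in E3, where 74 were. With group means taken off, Insr went with endothelial markers at r = 0.68 over the 72 libraries.

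Irs1 and Irs2 are the adaptors that couple both receptors to PI3 kinase. Irs1 in E3 measured 49.5, 53.8 and 54.6 CPM in fasted KO, against 54.6, 54.4 and 59.6 CPM in fed KO. In E3 WT it measured 44.2, 48.2 and 48.6 CPM fasted, against 62.2, 63.3 and 57.3 CPM fed. The E3 WT groups lie apart, and the E3 KO groups overlap at 54.4 to 54.6 CPM. In E1 it measured 68.6, 67.7, 65.6 and 58.1 CPM in fasted KO, against 65, 61.5, 64.6 and 63.8 CPM in fed KO. In E1 WT it measured 70.6, 65.4 and 67.4 CPM fasted, against 65.2, 61.8, 60.6 and 60.2 CPM fed, so that here every fasted library lies above every fed one.

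The fasting effect on Irs1 differed between the lines by -0.29 (E3 minus E1, SE 0.07, edgeR adjusted p 0.00637). That difference stayed called in all 27 fits with a library left out (log2 -0.31 to -0.26) and under all 7 other settings. Over the E3 libraries alone, Irs1 fell by 0.23 (SE 0.07, adjusted p 0.0425) in a comparison that called 2 of the 9 genes and 11.5% of 14860 genes (6.93% higher and 4.54% lower), but this call held only without fed E3 KO 2 or fasted E3 KO 2 or 3 among the 12 libraries (adjusted p up to 0.11), and it ended with no filter on low counts (-0.23, adjusted p 0.0629) and without the libraries holding other tissues (-0.22, adjusted p 0.126). Irs2 was at 0.15 (0.05, 0.0662) in knockouts and -0.04 (0.06, 0.721) in wild types.

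Ghsr, the ghrelin receptor, was the one gene of the 10 whose fasted mean was above the fed mean in all 10 pairs of line and genotype. Irs2 had this order in 9 pairs. In E2, E4 and E5 the pairs also differ in batch, and the share of all genes with this order was not counted. In knockouts Ghsr measured 10.1, 4.85, 6.09 and 3.37 CPM in fasted E1 KO, against 5.16, 4.4, 4.58 and 7.7 CPM in fed E1 KO. In E3 KO it measured 4.95, 5.1 and 4.15 CPM fasted, against 2.58, 3.43 and 2.54 CPM fed. The E1 KO groups overlap over most of their range, and the E3 KO groups do not overlap. The KO estimate over both lines was 0.36 (SE 0.21, edgeR adjusted p 0.248).

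In E1 WT Ghsr measured 7.52, 5.78 and 6.93 CPM fasted, against 3.89, 5.02, 3.82 and 4.65 CPM fed, and in E3 WT 2.75, 6.07 and 3.62 CPM fasted, against 2.77, 3.52 and 2.16 CPM fed. All fasted E1 WT libraries are above all fed ones, whereas in E3 WT the lowest fasted library lies within the fed range. Over both lines Ghsr rose by 0.59 (SE 0.17, edgeR adjusted p 0.0387) in wild types. Within a batch it was 0.60 (0.16, 0.0559) in E1 and 0.60 (0.32, 0.224) in E3. The call ended without fasted E1 WT 1, fed E1 WT 1, 2 or 3, fasted E3 WT 2 or 3, or fed E3 WT 1 or 3 (log2 0.47 to 0.68 and adjusted p 0.0274 to 0.0977 over the 13 fits).

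Over all 12 E3 libraries Ghsr rose by 0.64 (0.20, 0.0480), a call that held without fasted E3 KO 3 or fasted E3 WT 1 and ended without any one of the other 10 libraries (adjusted p 0.0318 to 0.111), with no filter on low counts (0.64, adjusted p 0.0509) and without the libraries holding other tissues (0.68, adjusted p 0.087). Hypothalamic markers summed to 269.8, 198.9 and 361.1 CPM in fasted E3 KO against 160, 224 and 182 CPM in fed E3 KO, and to 254, 306 and 313 CPM in fasted E3 WT against 181.1, 219.9 and 168.5 CPM in fed E3 WT; their part in the Ghsr difference was not tested. With group means taken off, Ghsr went with the hypothalamic markers at r = 0.48 and with the thalamic ones at r = -0.49 over the 72 libraries.

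Cnr1, the receptor of endocannabinoids, rose in fasted wild types over both lines together. In knockouts the estimate over both lines was below 0 and did not pass the test. In E1 it measured 124, 100, 100 and 94.2 CPM in fasted KO, against 103, 106, 106 and 94 CPM in fed KO. In E1 WT it measured 118, 118 and 118 CPM fasted, against 110, 103, 92.1 and 113 CPM fed. The WT groups do not overlap, and the KO groups do. In E3 it measured 112, 93.1 and 89.5 CPM in fasted KO, against 128, 142 and 104 CPM in fed KO. In E3 WT it measured 141.23, 189.01 and 130.44 CPM fasted, against 111, 92.7 and 79 CPM fed. The E3 wild types separate with the fasted libraries on top, while in E3 knockouts 2 of the 3 fasted libraries lie below every fed one.

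Over both lines Cnr1 was at -0.16 (SE 0.09, edgeR adjusted p 0.243) in knockouts, and it rose by 0.42 (0.11, 0.0284) in wild types. Within a batch the wild types gave 0.14 (0.08, 0.313) in E1 and 0.75 (0.15, 0.00892) in E3. The knockouts gave 0.03 (0.08, 0.810) in E1 and -0.36 (0.14, 0.331) in E3, so the value below 0 came from E3. The WT call ended without fed E1 WT 3, fasted E3 WT 1, or fed E3 WT 2 or 3 (log2 0.33 to 0.47, adjusted p up to 0.0765), and without the libraries holding other tissues (0.42, adjusted p 0.0861).

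Whether a knockout's effect depended on feeding was tested as the interaction of genotype and feeding, that is, the KO effect in fasted minus that in fed mice. In E3 1 of the 9 genes was called, Cnr1, against 1.34% of 15033 genes (0.486% higher and 0.858% lower). Its KO effect was 1.09 lower in fasted than in fed E3 mice (log2 -1.09, SE 0.21, edgeR adjusted p 0.0397). The call held without fasted E3 KO 1, fasted E3 WT 2 or fed E3 WT 1 and ended without any one of the other 9 libraries (log2 -1.20 to -0.94, adjusted p 0.0275 to 0.122). It also ended without the libraries holding other tissues (-1.22, adjusted p 0.209) and with the GC trend of each library taken out (-0.99, adjusted p 0.142). Igf1r had the other sign, at 0.67 (0.18, 0.0676). DESeq2 called both, with Cnr1 at -1.10 (adjusted p 0.000318) and Igf1r at 0.65 (0.0129).

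Thalamic markers summed to 290, 582 and 475 CPM in fasted E3 KO, against 328, 141 and 664 CPM in fed E3 KO. In E3 WT they summed to 260.9, 120.2 and 357.7 CPM fasted, against 486, 529 and 539 CPM fed. The fasted E3 WT libraries are all below the fed ones, and the lowest, at 120.2 CPM, is the library with Cnr1 at 189.01 CPM, in which cortical and hippocampal markers (6 genes) summed to 259 CPM against 56.3 and 47 CPM in the other fasted E3 WT libraries. Without that library the Cnr1 interaction was -0.94 (SE 0.20, edgeR adjusted p 0.0275). With group means taken off, Cnr1 went with thalamic markers at r = -0.49 over the 72 libraries, and the part of thalamic tissue in the interaction was not tested.

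**Figure D4:**
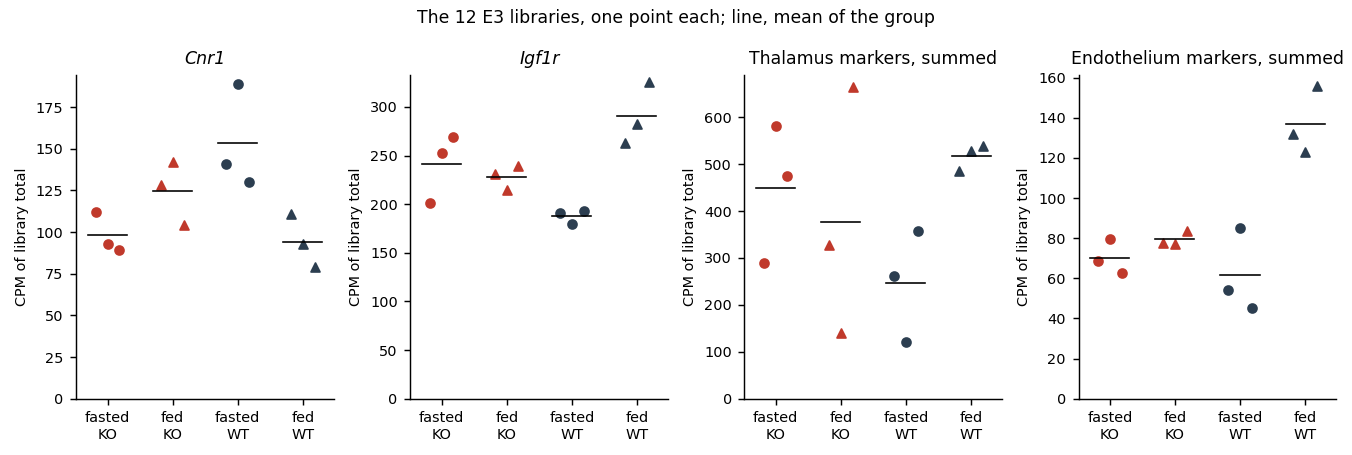
CPM of Cnr1 and Igf1r and summed CPM of thalamic and endothelial markers in the 12 E3 libraries, 1 point each, with a line at the group mean. Cnr1 is at 89.5 to 112 CPM in fasted KO and 104 to 142 in fed KO, against 130.44 to 189.01 in fasted WT and 79 to 111 in fed WT; the endothelial markers stand highest in fed WT.

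In E1, E2, E4 and E5 no gene at all was called for this interaction (0% of 15222, 20452, 19393 and 19319 genes by edgeR). At an unadjusted p under 0.05 there were 0 of the 9 genes in E1 against 8.1% of all genes, 2 in E2 against 6.45%, 0 in E4 against 11.2% and 0 in E5 against 5.95%, and DESeq2 called none of the 9 in these 4 lines. The Cnr1 estimates were -0.12 (SE 0.11) in E1, 0.33 (0.22) in E2, -0.21 (0.11) in E4 and -0.35 (0.20) in E5.

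Knockout against wild type within a line and feeding state called none of the 9 genes in any of the 10 comparisons, where edgeR called 0% of the genes tested and up to 2546 genes per comparison had an unadjusted p under 0.05. In fasted E2 that 0 became 71 genes without fasted E2 WT 1 and 772 without fasted E2 WT 3, in fasted E4 it became 23 without fasted E4 KO 3, and none of the 9 genes was among them. Of the 9 genes, 6 of the 90 estimates (6.67%) had an unadjusted p under 0.05, against 6.99% of the 170973 estimates of all genes, so the share is that of the background. Cnr1 had 3 of them, with -0.70 (SE 0.15, edgeR adjusted p 0.148) in fasted E3, 0.39 (0.13, 0.423) in fed E3 and -0.28 (0.11, 0.667) in fasted E5. Igf1r had the other 3, with -0.62 (0.23, 0.660) in fasted E2, 0.29 (0.12, 0.509) in fasted E4 and -0.37 (0.11, 0.382) in fed E3. DESeq2 called 1 of the 90, Cnr1 in fasted E3 (-0.71, adjusted p 0.00177), and a fit over both feeding states gave -0.70 with an edgeR adjusted p of 0.0306.

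The precision differed between the genes. Over the 10 comparisons the 95% intervals ran from -0.30 to 0.47 for Irs2, -0.31 to 0.74 for Irs1, -0.42 to 0.41 for Stat3 and -0.45 to 0.48 for Insr. They ran from -0.79 to 0.63 for Lepr, -0.89 to 0.79 for Ghsr and -1.62 to 1.66 for Socs3. An estimate that missed the threshold does not show that knockouts and wild types were alike. In the authors' deposited tables, which hold 76 values of these genes over 8 comparisons and give wild type over knockout, 3 values have a p under 0.05 and none an adjusted p under 0.05.

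**Figure D5:**
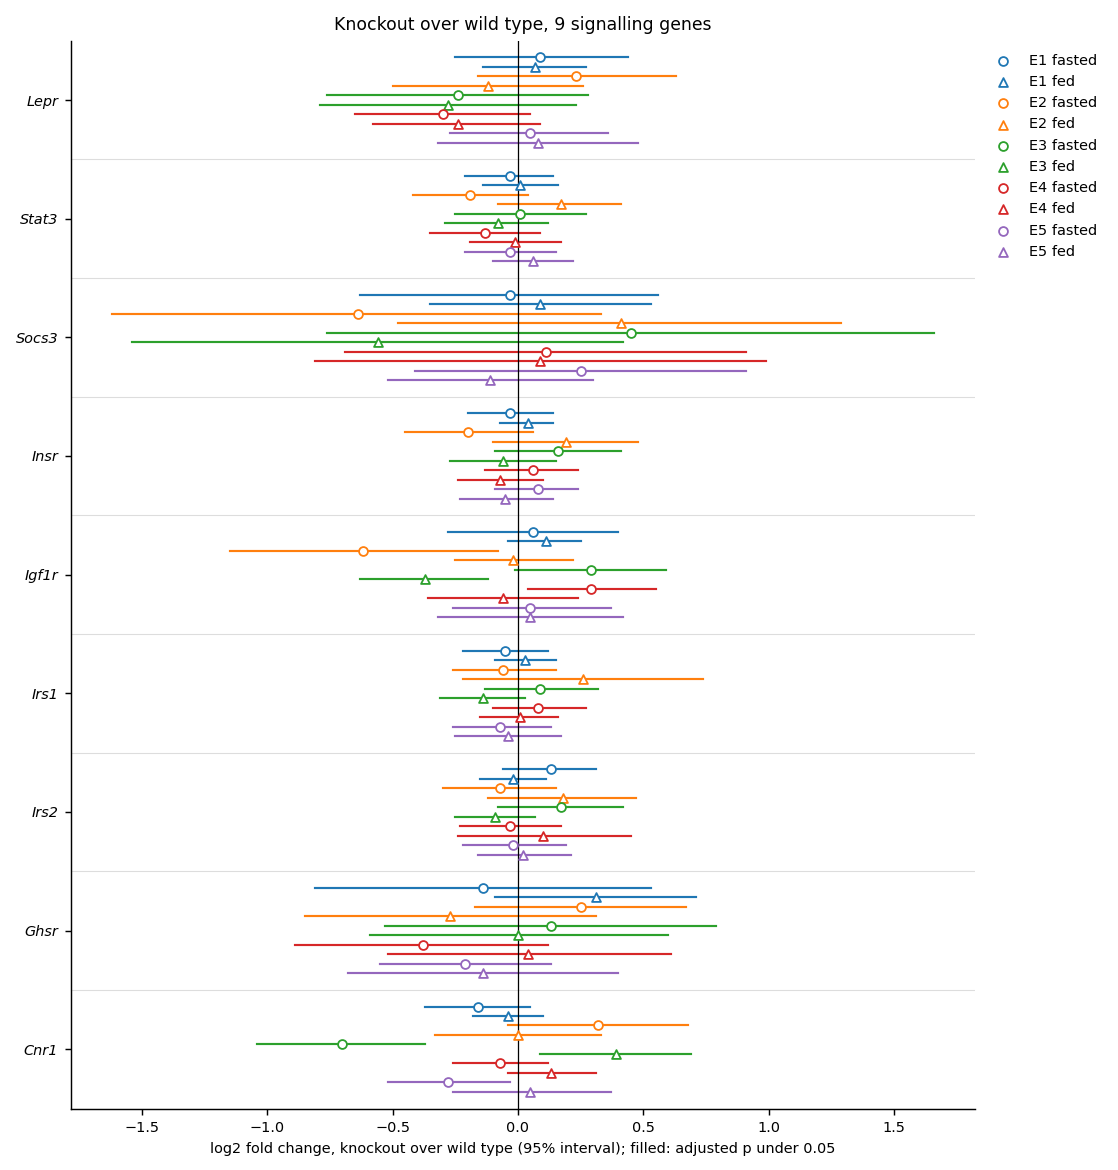
Log2 fold change of knockout over wild type with its 95% interval for 9 genes in the 10 comparisons of line and feeding state; circles are fasted and triangles fed, and no symbol is filled because no adjusted p is under 0.05. Cnr1 in E3 lies at -0.70 fasted and 0.39 fed, and the intervals of Socs3 are the widest, -1.62 to 1.66 overall.

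In E2, E4 and E5, fasted libraries were set against fed ones of another batch, so batch and feeding cannot be told apart. E2 called 2 of the 9 genes and 18.9% of 19751 (9.57% higher, 9.31% lower). E4 called 3 and 48.5% of 18768 (25.0% higher, 23.5% lower). E5 called 5 and 62.9% of 18797 (30.8% higher, 32.1% lower). Ghsr was the one called in all 3 lines, and it had the same direction as in the shared-batch wild types. It measured 8.53, 7.88 and 10.3 CPM in fasted E2 KO against 4.7, 2.62, 2.06 and 3.83 CPM in fed E2 KO, and 8.49, 6.58 and 7.1 CPM in fasted E2 WT against 4.42, 4.05, 3.33 and 4.3 CPM in fed E2 WT. In E2 all fasted libraries are above all fed ones in both genotypes. The log2 fold change was 1.10 (SE 0.18, edgeR adjusted p 0.00128) in E2, 0.72 (0.19, 0.00418) in E4 and 0.61 (0.15, 0.00182) in E5, and it stayed called with every library left out in turn in these 3 fits.

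The 3 fasted E2 WT libraries held anterior pituitary transcripts (1273 to 11684 CPM summed), while the fasted E2 KO libraries held 2.08 to 28.5 CPM. The part of pituitary tissue in the Ghsr values was not tested. Without the libraries holding other tissues, which include all 3 fasted E2 WT libraries, Ghsr was at 1.21 (edgeR adjusted p 0.00376) in E2. That value compares fasted with fed knockouts only. The summed hypothalamic markers were also higher in the fasted groups, with medians of 796 CPM in fasted E2 KO against 523 in fed E2 KO and 1027 in fasted E2 WT against 443 in fed E2 WT. In E4 the medians were 653 CPM in fasted KO against 473 in fed KO and 968 in fasted WT against 477 in fed WT, and in E5 776 in fasted KO against 418 in fed KO and 687 in fasted WT against 492 in fed WT. The part of these markers in the Ghsr differences was not tested. In E4 Ghsr averaged 5.52 ± 2.28 CPM (SD, n = 3) in fasted KO against 4.38 ± 0.244 (n = 4) in fed KO, and 8.45 ± 2.5 in fasted WT against 4.21 ± 1.71 in fed WT (n = 4 each). In E5 it averaged 7.73 ± 1.21 CPM in fasted KO against 4.85 ± 0.727 in fed KO, and 8.91 ± 1.54 in fasted WT against 5.31 ± 2.31 in fed WT (n = 4 each). The E4 groups of both genotypes and the E5 WT groups overlap, and the E5 KO groups do not.

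Lepr went opposite ways in these lines. It rose in E2 by 0.59 (SE 0.13, edgeR adjusted p 0.00792), averaging 23.2 ± 1.99 CPM in fasted KO (n = 3) against 12.9 ± 1.55 in fed KO (n = 4), and 19.4 ± 3.96 in fasted WT (n = 3) against 14.3 ± 3.33 in fed WT (n = 4). The E2 KO groups lie apart and the E2 WT groups overlap. In E4 it fell by 0.41 (0.11, 0.00522), averaging 9.48 ± 3.27 CPM in fasted KO (n = 3) against 14.1 ± 2.35 in fed KO (n = 4), and 13.6 ± 2.27 in fasted WT against 16.5 ± 2.84 in fed WT (n = 4 each). The E4 groups overlap in both genotypes. The lowest, fasted E4 KO 1 at 5.98 CPM, had 36.3% of its counts in 10 genes, and without the libraries holding other tissues, which include it, the E4 value was -0.49 (adjusted p 0.00948). With the GC trend of each library taken out it was -0.07 (adjusted p 0.659). Irs2 in E4 rose by 0.33 (0.10, 0.00904) and was at 0.00 with the GC trend taken out and at 0.32 (adjusted p 0.0505) without the libraries holding other tissues.

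E5 had the most calls. Irs1 fell by 0.42 (SE 0.06, edgeR adjusted p 1.65e-05), with 48.7, 50.7, 52.4 and 51.9 CPM in fasted KO against 64.8, 66, 67.4 and 58.2 CPM in fed KO. In E5 WT it measured 53.1, 44.5, 54.7 and 60 CPM fasted, against 58.6, 65.7, 71.5 and 66 CPM fed, so that the KO groups lie apart and the WT groups overlap. Igf1r fell by 0.51 (0.12, 0.00112), Cnr1 rose by 0.44 (0.10, 0.00134) and Stat3 rose by 0.14 (0.06, 0.0297), the last not without fed E5 WT 1, 3 or 4 (adjusted p up to 0.0634), not without the libraries holding other tissues (0.15, adjusted p 0.084), not over the genes common to all tables (0.11, 0.0867) and not with the GC trend taken out (0.10, 0.127). Cnr1 measured 138, 162, 113 and 154 CPM in fasted E5 KO against 105, 101, 87.4 and 147 CPM in fed E5 KO, and 150, 178, 194 and 162 CPM in fasted E5 WT against 121, 116, 87.6 and 94.3 CPM in fed E5 WT. The WT groups lie apart, and the KO groups overlap through 1 fed library at 147 CPM. Neither Igf1r nor Cnr1 was called in E2 or E4. By edgeR, Igf1r was at -0.02 (SE 0.14, adjusted p 0.933) in E2 and -0.21 (0.10, 0.108) in E4. Cnr1 was at -0.03 (0.12, 0.861) in E2 and 0.07 (0.06, 0.363) in E4. Striatal markers (7 genes), which went with Igf1r, had medians of 399 CPM in fasted E5 KO against 787 in fed E5 KO and 355 in fasted E5 WT against 670 in fed E5 WT. Thalamic markers, which went with Cnr1 in the other direction, had medians of 75.1 CPM in fasted E5 KO against 120 in fed E5 KO and 70.1 in fasted E5 WT against 112 in fed E5 WT. Their part in the E5 differences was not tested.

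Fasted E5 WT and fed E2 WT carry the same batch number, so they were also set side by side, with line and feeding coinciding. This comparison called 4 of the 9 genes, all higher, against 30.7% of 18753 genes (15.7% higher and 15.0% lower). Ghsr was at 1.14 (SE 0.16, edgeR adjusted p 0.000589) and Cnr1 at 0.72 (0.10, 0.00064), and both stayed called with each of the 8 libraries left out. Irs2 was at 0.38 (0.12, 0.03), not called without fed E2 WT 2, 3 or 4 or fasted E5 WT 3 (adjusted p up to 0.0909). Without the libraries holding other tissues, fasted E5 WT 2 was the only fasted library left. Irs2 was at 0.18 in that fit, which cannot show the spread of the fasted group. Stat3 was at 0.22 (0.08, 0.0433), called only with fasted E5 WT 3 or 4 left out among the 8 (adjusted p up to 0.131). It was not called with no filter on low counts (0.23, adjusted p 0.065). With fasted E5 WT 2 as the only fasted library, Stat3 was at 0.35. Hypothalamic markers had a median of 687 CPM in fasted E5 WT against 443 in fed E2 WT, and their part was not tested. The fit shares its fed E2 libraries with the E2 comparison and its fasted E5 libraries with the E5 one.

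Other genes of the 4 pathways were taken from lists chosen by their known roles, with earlier results of these data known. Between fasted and fed knockouts of E1 and E3, 1 of 15 tested genes of leptin and JAK-STAT signalling was higher and 2 lower, 3 of 36 of insulin and IGF signalling higher and 4 lower, 2 of 12 ghrelin and incretin genes higher and 2 lower, and 2 of 15 endocannabinoid genes higher. In wild types the leptin list had 0 higher and 1 lower, the insulin list 2 and 1, the ghrelin list 0 and 1 and the endocannabinoid list, with 14 tested, 0 and 0. The list medians lay between -0.09 and 0.08 in knockouts, where all genes had -0.01, and between -0.03 and 0.07 in wild types, where all genes had 0.01. Of all genes, 20.1% were called in knockouts and 11.0% in wild types.

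Ddit4, an inhibitor of mTORC1 that stress and glucocorticoids induce, rose in both genotypes by 1.09 (SE 0.08, edgeR adjusted p 4.92e-06) in knockouts and 0.64 (0.10, 0.00385) in wild types. It averaged 46.3 ± 2.61 CPM in fasted E1 KO against 23.6 ± 3.68 in fed E1 KO (n = 4 each), and 38.9 ± 2.61 in fasted E3 KO against 15.8 ± 1.25 in fed E3 KO (n = 3 each). Rptor, the scaffold of mTORC1, fell by 0.27 (0.07, 0.0144) in knockouts and 0.36 (0.08, 0.0166) in wild types. Stat5b, a transcription factor related to Stat3, fell by 0.28 (0.09, 0.0379) in knockouts and 0.28 (0.06, 0.0137) in wild types. Igfbp3, which binds IGF1 in the extracellular fluid, was at 0.28 (adjusted p 0.0807) in knockouts and rose by 0.62 (0.15, 0.019) in wild types. Mrap2, an accessory protein of Ghsr and of the melanocortin receptor Mc4r, was at -0.27 (0.13, 0.146) in knockouts and fell by 0.29 (0.08, 0.0376) in wild types. For these related genes only the main fits were examined, so how far their calls hold under other settings is not known. Over all genes, calls in the wild types went from 1637 to 373 without the libraries holding other tissues.

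The genes most like each member were ranked by Pearson's r of log2 CPM over the 72 libraries after the group means had been taken off, among 13615 genes. Cnr1 was followed most closely by Shroom2 (0.85), Usp46 (0.85) and Gad1 (0.83), the last an enzyme that makes GABA. Igf1r went with Arid1b (0.91), Irs2 with Polr2a (0.84), Stat3 with Adgra3 (0.79), Ghsr with Slc19a2 (0.76), Lepr with Lama1 (0.67) and Socs3 with Klf10 (0.65). These points share depth, dissection and base composition, and no test was made of them. Irs1 with Abca1 (0.87) and Insr with Itpr2 (0.84) rested on fasted E4 KO 1 and fed E2 KO 3, since r was 0.43 and 0.48 without them. Without these libraries Lama1 was at 0.64 for Lepr, behind Col4a6 (0.69), and Adgra3 at 0.70 for Stat3, behind Dlk1 (0.71). Cnr1, Igf1r, Irs2, Ghsr and Socs3 kept their first gene.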

How the data were processed

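Total RNA of the hypothalamus was sequenced in 72 libraries of 20 groups. The authors deposited raw counts per Ensembl gene in 10 tables, 1 for each line and feeding state; per the submitters' processing notes HISAT2, Bowtie2, edgeR and the mm10 genome were used, and the counting tool is not given in the sources used here. They also deposited edgeR tables with log2 fold changes (wild type over knockout) and p-values for 8 genotype comparisons. All count columns were matched to a library, with 0 left over; in the E3 tables, column names beginning with ctrl or 3CR were read as fed and fasted, after the tables' own names. Symbols came from the deposited edgeR tables.

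The counts were fitted with edgeR 4.0.16 (quasi-likelihood, TMM, filterByExpr at its settings of 10 counts and 15 in total) in R 4.3.3, within each line and feeding state for genotype, and with line or genotype as a covariate for fasting. P-values were adjusted over all genes tested, with a threshold of 0.05. Levels are CPM of the library total, per kb of merged exons in GENCODE M21 where genes are compared. Depth was 5517552 to 39999368 counts, and the floor of 3 counts and the intervals of 95% cover no more than the spread and counting error of these libraries. The script for the fits was tested on simulated data with 200 changed genes.

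The 10 members and the 4 related lists were chosen with earlier results of these data known. All members are named; of the lists, up to 4 called genes per direction in E1 and E3 wild types; and for likeness the 3 genes of highest r among those with a mean of at least 1 CPM. Alternatives were RLE, DESeq2 1.42.0 (limma 3.58.1 was loaded with edgeR), no filter, genes common to all tables, both feeding states in one fit, a replicate block and each library left out; fits without 15 libraries holding other tissues, with a GC trend taken out, and with E1 or E3 alone were added after the data had been seen. Replicate numbers come from the labels in E3, fed E4 and fed E5 and name libraries only: same-numbered libraries correlated in their deviations at -0.28 to 0.39.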

Additional observations from a re-analysis of the deposited data

Results flagged for a closer look

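For 9 genes in the 12 groups of 4 libraries, which gives 108 sets of 4 values from the same libraries, 7 sets had a library far from the others of its group. These 7 were held by 5 libraries, and chance alone sets apart about 1 in 20 sets. Fed E2 KO 3 accounted for 2 of them. Its Insr was at 196 CPM against 134 to 142 CPM in the other fed E2 KO libraries, and its Irs1 at 112 CPM against 56.4 to 61.2 CPM. Fat markers summed to 3606 CPM in that library, and their part in its levels was not tested. Fasted E1 KO 3 held 2 more, with Insr at 152 CPM against 140 to 142 CPM and Socs3 at 1.62 CPM against 2.35 to 2.37 CPM in its group. Lepr was at 14.3 CPM in fed E1 WT 1 against 16.2 to 16.4 CPM in the other fed E1 WT libraries, and at 10.6 CPM in fed E4 KO 2 against 15 to 15.5 CPM in the other fed E4 KO libraries. Irs2 was at 102 CPM in fed E2 WT 1 against 77.3 to 81.4 CPM in the other fed E2 WT libraries.

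Effects that differed between groups by a test of the difference were the fasting effect in E3 minus that in E1 on Irs1 (log2 -0.29) and on Lepr (0.54), and the effect of the E3 knockout on Cnr1 in fasted minus fed mice (-1.09), each by edgeR's quasi-likelihood test. E3 and E1 also differ in batch number and in Ddx3y, which cannot be told apart from the line.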

How the results depend on the processing

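Of 3996 estimates for the 9 genes under other settings, 3838 stayed on the same side of the threshold, called or not. Only 25 estimates of the main fits were called, so most of the 3838 were uncalled before and after. Of the rest, 125 were no longer called, 33 were newly called and 0 changed sign while called. Called or not, 171 of the 3996 had another sign. The causes were not tested. Members called for fasting in E1 and E3 knockouts were 1, against 0 under RLE, without a filter, with the GC trend taken out and in E1 or E3 alone, and 2 under DESeq2. In their wild types 3 became 1 without the libraries holding other tissues and 0 in E1 alone. In E3, 2 became 0 without a filter and without those libraries; for E3 minus E1, 2 became 1 under RLE, no filter and the GC trend. Genotype in fasted E3 gave 0, and 1 under DESeq2 and over both feeding states; the E3 interaction gave 1, then 2 under DESeq2 and 0 with the GC trend or without those libraries. With a replicate block, members called became 0 in fasted knockouts (Insr lost, at -0.14, adjusted p 0.0543), 1 in E3 (Irs1 lost, -0.23, 0.074), 1 in E3 minus E1 (Lepr lost, 0.53, 0.0554), 2 (from 5) in E5 (lost were Cnr1 at 0.31, 0.172, Igf1r at -0.29, 0.234, and Stat3 at 0.19, 0.159) and 0 in the E3 interaction, where Cnr1 was at -1.08 (adjusted p 0.0641), and no other count of members changed by over 1.5 times. With 1 library left out, members called ranged from 0 to 1 in knockouts, 1 to 3 in wild types and in E1, 0 to 2 in E3, 2 to 3 in E2, 3 to 4 in E4, 4 to 6 in E5, 1 to 2 for E3 minus E1, 0 to 2 for the E3 interaction, 2 to 6 for fasted E5 over fed E2 wild types, and 0 to 0 for genotype and the other interactions. Genes called overall for fasting in wild types were 1637, against 2496 under DESeq2, 373 without libraries holding other tissues, 784 in E1 alone, 2891 in E3 alone and 668 to 3217 with 1 library left out. In knockouts they were 3007, against 5169 in E1 alone, 74 in E3 alone and 1892 to 3735 with 1 library left out. Those of E3 were 1704, against 1084 with the block, 802 and 785 to 2878. The E3 interaction had 202, against 1098 under DESeq2, 0 with the block, the GC trend or those libraries left out, and 0 to 697. E5 had 11821, against 4903 with the block, and E4 9097, against 5175 with the GC trend. E2 had 3730, against 2284 without those libraries. Fasted E5 over fed E2 had 5749, and without those libraries that fit kept only 1 fasted library. Genotype in fasted E3 had 0, against 539 under DESeq2 and 605 over both feeding states. Genotype in the other comparisons also gave 0. In fasted E2 this became 109 under DESeq2 and 4 over both feeding states. Fed E3 had 107 under DESeq2, fasted E4 169 with no filter and 19 under DESeq2, and fasted E5 21 under DESeq2. Elsewhere it was at most 4. Fits without those libraries are not counted for fasted E4, which keeps 1 KO library, or fasted E5, which keeps 1 WT library. With 1 library left out genotype gave up to 772 in fasted E2, and the E2 interaction up to 28 (25 under DESeq2). In E2, fasted genotype could not be fitted without those libraries, which include all its wild types. Scaling by TMM over all libraries moved 32 of 200 group levels by 1 SD or more. Glp1r, with 27 counts in all, could not be tested.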
